A study of Mus musculus with 106 samples.

Results

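The libraries described here hold mRNA bound to ribosomes of cerebellar Gad2+ neurons, in mice that model Huntington's disease (HD) and in controls. They were chosen by their sample labels (cell type Gad2, tissue cerebellum, preparation RiboTag IP), which 12 of the 106 libraries of the series carry, 6 HD and 6 control. HD mice were heterozygous for a long CAG repeat knocked into the mouse *Htt* gene (Hdh Q7/Q200), and controls carried the short mouse repeat on both alleles (Hdh Q7/Q7). All were on the 129S4 strain, were about 9 months old, and carried 1 Rpl22-HA RiboTag allele and 1 Gad2-IRES-Cre allele. Cre from the *Gad2* gene switches on an HA tag on the ribosomal protein Rpl22, so that an antibody to HA pulls down ribosomes of all cells that have ever expressed that Cre, a mixture of several GABAergic neuron types. The control libraries held 28961145 to 40661342 estimated counts on mouse genes (median 35626924), and the HD libraries 26873270 to 93692505 (median 40334584). The deepest, HD replicate 6, was sequenced again with reads of 150 rather than 100 bases, so read length and genotype cannot be told apart for it. Its title gives another replicate number, and the number used here is that of the cerebral IP of the same mouse.

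For comparison, cerebellar vGluT2+ IPs from other mice of the same genotypes, strain and age (6 HD, 5 control, vGluT2-IRES-Cre) stand for excitatory neurons, most of them granule cells. Cerebral Gad2+ IPs came from the same 12 mice as the cerebellar ones. Cerebellar total RNA came from 3 HD and 3 control mice of the Gad2 line and from 4 HD and 4 control mice of the vGluT2 line. The question was which mRNAs differ between HD and control mice in GABAergic cells of the cerebellum, a region with several neuron types of unlike vulnerability.

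GABAergic neurons of the cerebellar cortex comprise Purkinje cells, the only output of the cortex, and local interneurons: Golgi cells, which inhibit granule cells, and basket and stellate cells, which inhibit Purkinje cells. Granule cells are excitatory, far outnumber all other cerebellar neurons, and reach Purkinje cells through parallel fibres. Huntingtin, the protein of the HD gene, is made in all of these cells, and the disease is best known for its toll on GABAergic projection neurons of the striatum.

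*Htt* itself was at 48.0 to 118 CPM (counts relative to library depth, scaled by TMM over the libraries compared here; median 96.2) in control Gad2+ IPs, and at 54.1 to 68.6 CPM (median 62.9) in HD IPs. Of the controls, 5 lay above all HD libraries, while control replicate 2 was the lowest of the 12, so the groups overlap. The counts do not separate the mutant from the normal allele. The log2 fold change of HD over control was −0.58 (SE 0.18), and *Htt* did not pass (adjusted p = 1 by edgeR, quasi-likelihood F test, Benjamini-Hochberg over all genes). An exact permutation test of this single gene over 924 arrangements of the 12 libraries gave a two-sided p of 0.0303, not adjusted for the other genes, where the smallest possible was 0.00216. In cerebellar vGluT2+ IPs *Htt* was at a median of 95.8 CPM in controls and 80.3 CPM in HD mice (log2 fold change −0.32, SE 0.13), and the difference between the HD effects did not pass either (−0.24, SE 0.22, edgeR adjusted p = 0.853).

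The IPs were checked against markers of the labelled cells. *Pcp2* and *Foxp2*, markers of Purkinje cells, had median levels of 1315 and 25.8 CPM in control Gad2+ IPs against 580 and 4.76 CPM in total RNA of control mice of the same line. *Sorcs3* of Golgi cells was at 81.0 against 21.4 CPM, and *Grik3* of basket and stellate cells at 348 against 104 CPM. Against all 14 cerebellar total RNA libraries, with genotype as a covariate, the log2 ratios were 1.63 for *Pcp2*, 2.26 for *Foxp2*, 2.04 for *Sorcs3* and 1.98 for *Grik3*, and edgeR called all 4 higher in the IPs. Neither mouse nor line was in that fit, though some mice gave both preparations and the vGluT2 line gave total RNA only. In that comparison 9709 of 14411 genes (67.4%) were called, 5004 higher and 4705 lower, so a call by itself sets a marker apart from few genes. By list, 18 of 18 Purkinje cell genes, 5 of 5 Golgi cell genes and 7 of 8 basket and stellate cell genes were called higher (*Cdh22* was not). The median log2 ratios of the 3 lists were 1.79, 1.65 and 1.77, beside 0.04 over all genes tested. All 15 granule cell genes were called lower, with a median of −1.90.

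RNA of other cells was reduced in the IPs and not absent. The 15 granule cell genes summed to 1505 to 2650 CPM (median 2047) in control Gad2+ IPs and to 1335 to 2203 CPM (median 1845) in HD IPs, with *Zic1* the most abundant and no gene of the list at 0. The control median was 11.6% of that in control vGluT2+ IPs (17590 CPM) and 24.8% of that in total RNA of the same line. Genes of astrocytes and Bergmann glia (11 of 11, median log2 ratio −1.95), oligodendrocytes (10 of 10, −2.17), endothelial and mural cells (6 of 6, −2.08) and microglia (8 of 9, −1.01) were called lower in the IPs than in total RNA. Of the forebrain GABAergic genes, *Dlx5* and *Dlx6* were at 0 in all 12 IPs, and the list summed to at most 0.131 CPM in any of them.

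**Figure D1:**
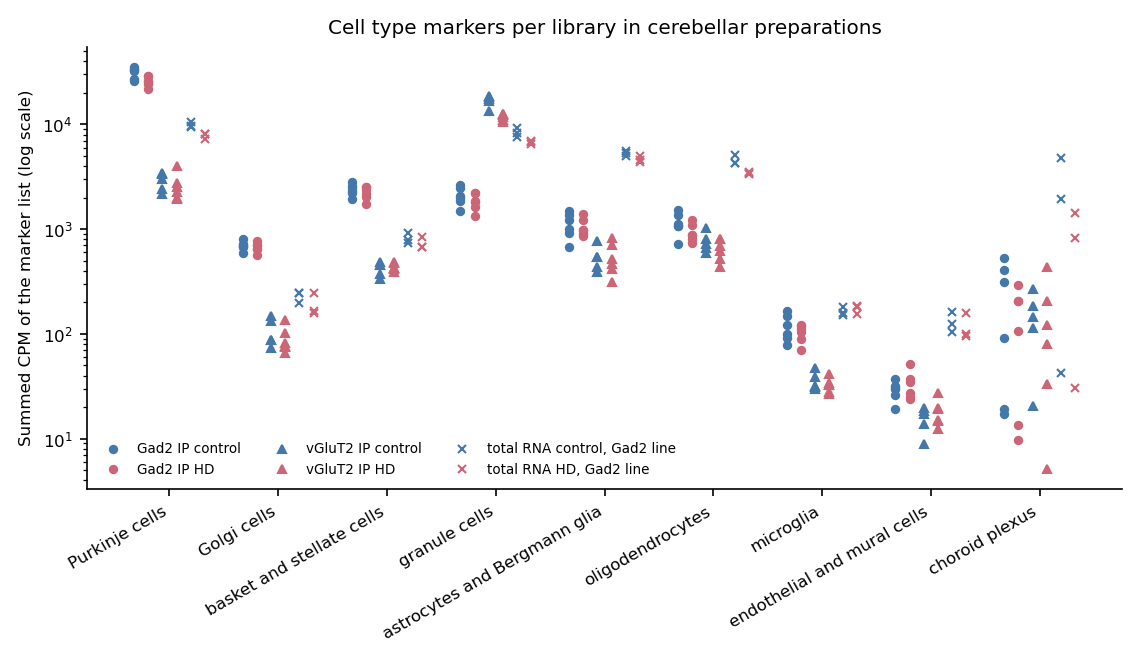
Summed CPM of marker lists (vertical axis, log scale), 1 point per library, for cerebellar Gad2+ IPs, vGluT2+ IPs and total RNA of the Gad2 line, with controls in blue and HD in red. Purkinje cell genes sit at 21830 to 35270 CPM in Gad2+ IPs, and granule cell genes at 1335 to 2650 CPM there against 10560 to 18800 CPM in vGluT2+ IPs.

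Between HD and control Gad2+ IPs, mRNA of the cell cycle gene *Ccnd1* rose and mRNA of the glutamate receptor gene *Grm4* fell, and edgeR called no other gene. *Ccnd1* codes for cyclin D1, which with its kinases drives cells from G1 into S phase and is usually low in mature neurons. It was at 6.58 to 9.50 CPM (median 7.83) in controls and 12.4 to 27.6 CPM (median 19.4) in HD mice. All 6 HD libraries lay above all 6 controls, HD replicates 2 and 3 highest and HD replicate 4 lowest of the HD group. Within the HD group the summed granule cell genes were also highest in replicates 3 (2203 CPM) and 2 (2192 CPM) and lowest in replicate 4 (1335 CPM). A link between the 2 orders was not tested. EdgeR called *Ccnd1* at an adjusted p of 0.0402, with HD above control by 1.34 (SE 0.18) on the log2 scale. *Grm4* codes for mGlu4, a presynaptic receptor that dampens glutamate release at parallel fibre synapses. It was at 84.6 to 125 CPM (median 101) in controls and 47.6 to 69.8 CPM (median 55.9) in HD mice. Again the groups did not overlap, and all 6 HD libraries were below the lowest control, replicate 1. The log2 fold change was −0.87 (SE 0.13, adjusted p = 0.0404 by edgeR).

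These were 2 of 14098 genes tested (0.0142%), beside 324 at an unadjusted p under 0.05 (2.3%) and a median log2 fold change of 0.0037 over all genes. DESeq2 called 22 of the same genes (0.156%), 6 higher and 16 lower, *Ccnd1* (adjusted p = 3.43e-08) and *Grm4* (adjusted p = 2.67e-06) among them. The edgeR calls are lost under many other settings. Both were lost with limma-voom (adjusted p = 0.0911 for *Ccnd1* and 0.0676 for *Grm4*), with library totals (0.0523 and 0.34) and with *Xist* as a covariate (0.107 for both), at log2 fold changes of 1.27 to 1.42 and of −0.87 to −0.77. Without any 1 of control replicates 1, 2, 3, 4, 5 or 6, or of HD replicates 1, 2, 3, 5 or 6, edgeR called 0 genes, and without HD replicate 4 it called 3, *Ccnd1*, *Grm4* and *Plk5*. The 324 genes at an unadjusted p under 0.05 became 648 without HD replicate 4 and 528 without control replicate 2. Over those 12 fits the log2 fold change ran from 1.23 to 1.44 for *Ccnd1* (edgeR adjusted p from 0.00245 to 0.144) and from −0.93 to −0.79 for *Grm4* (0.0472 to 0.219). The labels give no sex, and the Y-linked *Ddx3y* had 0 counts in 2 control IPs and 4 HD IPs. With *Ddx3y* as a covariate, an alternative chosen after seeing the data, edgeR called 0 genes (407 at an unadjusted p under 0.05), and *Ccnd1* and *Grm4* each had an adjusted p of 0.0784, at log2 fold changes of 1.38 and −0.79.

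Both genes were more abundant outside the Gad2+ IPs. Between IPs and total RNA the log2 ratio was −1.95 for *Ccnd1* and −2.20 for *Grm4*, close to the median of the granule cell genes, a list that holds *Grm4*. In vGluT2+ IPs *Ccnd1* had a median of 29.96 CPM in controls and 102 CPM in HD mice (log2 fold change 1.79, SE 0.11), and *Grm4* had 934 and 403 CPM (−1.16, SE 0.17). The level in control Gad2+ IPs was thus 26.1% of that in control vGluT2+ IPs for *Ccnd1* and 10.8% for *Grm4*, beside 10.3% for *Gabra6* and 11.8% for *Slc17a7*, markers of granule cells. From control to HD the median of *Ccnd1* moved by 11.6 CPM in Gad2+ IPs and 71.7 CPM in vGluT2+ IPs. The HD effects on the log2 scale were not called different between the cell types for *Ccnd1* (−0.43, SE 0.22, edgeR adjusted p = 0.721) or *Grm4* (0.33, SE 0.22, edgeR adjusted p = 0.796). With the summed granule cell genes as a covariate edgeR called *Ccnd1* (log2 fold change 1.44, adjusted p = 0.00319) and *Cacna1e*, and *Grm4* had a log2 fold change of −0.81 and an adjusted p of 0.0524. With *Grm4* left out of that sum, an alternative chosen after seeing the data, its log2 fold change was −0.82 and its adjusted p 0.0508. Genes at an unadjusted p under 0.05 numbered 1016 and 864 in the 2 fits, against 324 without a covariate. The covariate follows the amount of granule cell RNA in a library and not an HD change within that RNA, so these fits cannot decide its part. The part of granule cell RNA in the change of either gene was not tested. In HD the granule cell list had a median log2 fold change of −0.04 (0.04 with library totals), with *Grm4* called of 15 and 3 at an unadjusted p under 0.05, *Grm4*, *Cbln1* (−0.33) and *Cbln3* (−0.51).

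With the rule for named genes (all called by edgeR, all called by DESeq2, then the lowest unadjusted p by edgeR), 30 genes are named, 7 higher and 23 lower in HD mice, and in 15 of them the groups did not overlap. Since they were chosen by this contrast, their direction and their lack of overlap support nothing. Over all genes tested, edgeR called 0.0142% and DESeq2 called 0.156%, and no share without overlap is given for all genes. Other than *Ccnd1* and *Grm4*, none passed in this edgeR fit, where their adjusted p-values ran from 0.189 upward (with all cerebellar IPs fitted together, *Car9*, *Ttll3*, *Ccdc63* and *Chil5* passed too). Where one of these other named genes is given below as called between HD and control Gad2+ IPs, the tool is DESeq2. Compared with cerebellar total RNA, where edgeR called 4705 of 14411 genes lower in Gad2+ IPs and 5004 higher (67.4% in all), 21 of the 30 were called lower, 6 were not called, and 3 were called higher: *Nek2*, *Cplx3* and *Aldoc*.

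Those 3 genes are the ones whose mRNA the Gad2+ IPs concentrate. *Nek2* codes for a kinase of the centrosome that also acts in cell division. It was at 71.4 to 102 CPM (median 77.1) in controls and 45.2 to 67.3 CPM (median 54.5) in HD mice, against medians of 18.1 CPM in control total RNA of the line and 3.84 CPM in control vGluT2+ IPs. All 6 HD IPs lay below all controls, and control replicate 1 stood above the other controls. Its log2 fold change was −0.54 (SE 0.12) by edgeR, and DESeq2 called it (−0.53, SE 0.13, adjusted p = 0.0323). *Cplx3* codes for a complexin, a small protein that clamps and promotes vesicle fusion. It was at 4.389 to 5.85 CPM (median 4.89) in controls and 1.97 to 4.395 CPM (median 2.67) in HD mice, where HD replicate 4 came just inside the control range. DESeq2 called it (log2 fold change −0.83, SE 0.21, adjusted p = 0.0493). *Aldoc* codes for aldolase C, a glycolytic enzyme known as zebrin II, which marks stripes of Purkinje cells and is also made in astrocytes. It was at 3327 to 5547 CPM (median 4787) in controls and 2624 to 4061 CPM (median 3017) in HD mice. HD replicates 5 and 6 overlapped control replicate 5, and neither tool called the gene (edgeR log2 fold change −0.54, SE 0.14, adjusted p = 0.785, DESeq2 adjusted p = 0.0988).

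**Figure D2:**
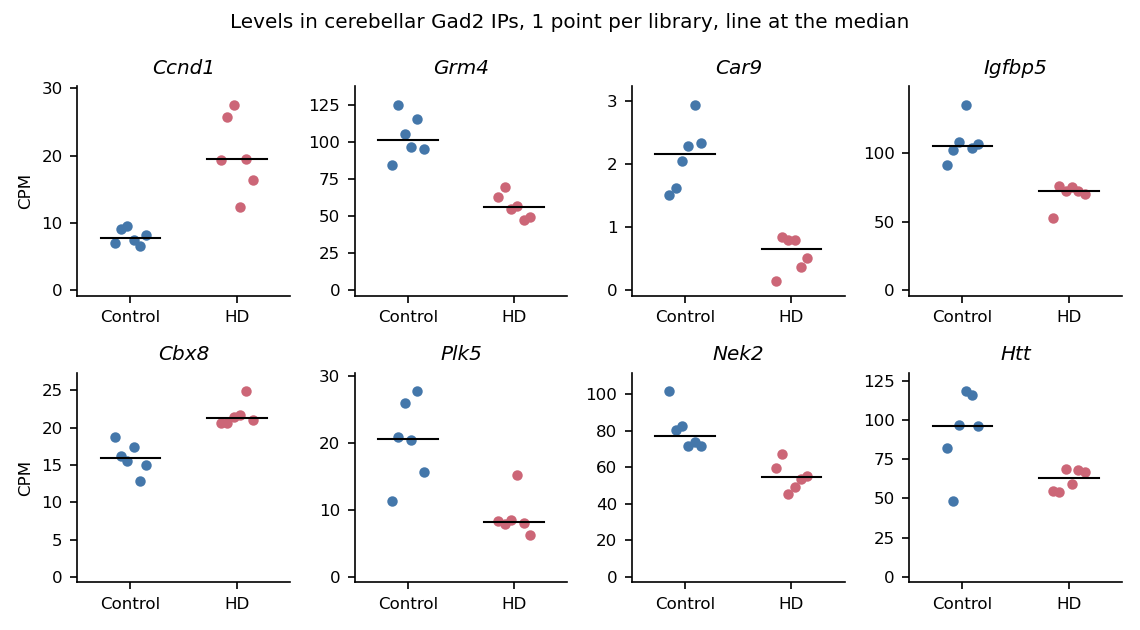
CPM (vertical axes, from 0) of 8 genes in control (blue) and HD (red) cerebellar Gad2+ IPs, 1 point per library, with a line at the median of 6. *Ccnd1* and *Cbx8* lie higher in all 6 HD libraries, *Grm4*, *Car9*, *Igfbp5* and *Nek2* lie lower in all 6, and *Plk5* and *Htt* overlap.

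Of the other genes called by DESeq2, 3 act in the cell cycle or in Polycomb repression. *Cbx8* codes for a chromodomain subunit of Polycomb repressive complex PRC1, which holds developmental genes silent. It was at 12.8 to 18.8 CPM (median 15.9) in controls and 20.6 to 24.9 CPM (median 21.2) in HD mice. The groups did not overlap, HD replicate 5 standing above a tight HD group, and DESeq2 called it (log2 fold change 0.46, SE 0.10, adjusted p = 0.00962). *Plk5*, a polo-like kinase relative found mostly in brain, was at 11.4 to 27.8 CPM (median 20.6) in controls and 6.30 to 15.2 CPM (median 8.20) in HD mice. HD replicate 4 alone reached into the control range, and DESeq2 called the gene lower (−1.16, SE 0.25, adjusted p = 0.00628). *Cdkn1a*, which codes for p21, an inhibitor of cyclin-dependent kinases, was at 11.6 to 17.0 CPM (median 15.02) in controls and 6.64 to 12.2 CPM (median 8.56) in HD mice. HD replicate 1 lay above control replicate 6, and DESeq2 called it lower (−0.67, SE 0.17, adjusted p = 0.0493).

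Of 29 G1/S regulators tested, edgeR called *Ccnd1* and DESeq2 called *Ccnd1*, *Plk5* and *Cdkn1a*, 18 log2 fold changes were above 0 and 11 below, and the median was 0.03 (0.12 with library totals), beside 0.0037 over all genes (0.09 with library totals). The partner kinase *Cdk4* had −0.11 (SE 0.13), and the related cyclin genes *Ccnd2* and *Ccnd3* had 0.41 (SE 0.21) and 0.08 (SE 0.15). Of 16 PRC1 genes, edgeR called 0 (2 at an unadjusted p under 0.05, *Cbx2* and *Cbx8*), and DESeq2 called *Cbx8*, with a median of 0.08 over the list (0.16 with library totals). *Cbx2* was at 0.394 to 1.08 CPM in controls and 1.16 to 1.86 CPM in HD mice, a log2 fold change of 0.98 (SE 0.30). For the 11 PRC2 genes, the complex that writes the histone mark PRC1 reads, the median was −0.02 (above 0 with library totals, 0.06), with 0 called by edgeR and 0 at an unadjusted p under 0.05, and no member is among the DESeq2 calls.

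Among the genes lower in HD mice, *Car9* and *Igfbp5* code for a carbonic anhydrase that low oxygen induces and for a secreted protein that binds insulin-like growth factors. *Car9* was at 1.51 to 2.95 CPM (median 2.17) in controls and 0.142 to 0.846 CPM (median 0.654) in HD mice, a log2 fold change of −1.88 by DESeq2 (SE 0.36, adjusted p = 0.000367). *Igfbp5* was at 91.4 to 136 CPM (median 105) in controls and 53.1 to 76.2 CPM (median 72.5) in HD mice, a log2 fold change of −0.61 by DESeq2 (SE 0.12, adjusted p = 0.000498). For both, every HD library lay below every control, and HD replicate 1 was the lowest. Both were far more abundant in control vGluT2+ IPs, at medians of 21.3 and 481 CPM. *Chil5*, of the chitinase-like family, was at 0.620 to 1.67 CPM in controls and 0.106 to 0.443 CPM in HD mice, against a median of 13.5 CPM in control vGluT2+ IPs (−1.94 by DESeq2, SE 0.40, adjusted p = 0.00296). *Rasal1*, which switches off Ras, was at 1.56 to 2.32 CPM in controls and 0.399 to 1.36 CPM in HD mice (−1.23 by DESeq2, SE 0.30, adjusted p = 0.0325). The groups did not overlap for either, at low levels. The control level in Gad2+ IPs was 10.2% of that in vGluT2+ IPs for *Car9*, 7.03% for *Chil5*, 21.9% for *Igfbp5* and 26.8% for *Rasal1*, and for the list of granule cell genes it was 11.6%. In HD mice the same shares were 13.3% for *Car9*, 7.91% for *Chil5*, 56.4% for *Igfbp5*, 58.3% for *Rasal1* and 15.3% for the list.

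*Ttll3*, an enzyme that adds glycine to tubulin, was at 3.04 to 5.85 CPM (median 4.84) in controls and 1.74 to 2.64 CPM (median 2.14) in HD mice, with no overlap (log2 fold change −1.07 by DESeq2, SE 0.20, adjusted p = 0.000177). In vGluT2+ IPs its HD effect was −0.14 (SE 0.22), and the difference between the cell types was not called (−0.91, SE 0.28, edgeR adjusted p = 0.359). *Inf2*, a formin that builds and severs actin filaments, was at 11.2 to 16.4 CPM in controls and 7.78 to 11.1 CPM in HD mice, where HD replicate 4 stood just under the lowest control (−0.61 by DESeq2, SE 0.15, adjusted p = 0.0400). *Ccdc63*, a coiled-coil protein, was lower in all 6 HD libraries (−1.03 by DESeq2, SE 0.18, adjusted p = 2.15e-05), and *Spef1*, which binds microtubules, was higher in all 6 (0.72, SE 0.18, adjusted p = 0.0365). *Neb*, the giant thin-filament protein nebulin best known from muscle, had a log2 fold change of −1.06 by DESeq2 (SE 0.26, adjusted p = 0.0323).

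*Kcnk2*, the background potassium channel TREK-1, was at 5.53 to 6.47 CPM (median 6.27) in controls and 7.97 to 11.4 CPM (median 8.97) in HD mice. The controls were close together and all HD libraries lay above them (0.64 by DESeq2, SE 0.14, adjusted p = 0.00962). *Adra2c*, an adrenergic receptor that couples to inhibitory G proteins, was at 5.99 to 9.06 CPM in controls and 8.84 to 11.6 CPM in HD mice, overlapping through control replicate 4 (0.56 by DESeq2, SE 0.13, adjusted p = 0.0307). *Svep1*, an extracellular matrix protein, and *Stap2*, a signalling adaptor, had log2 fold changes of −0.94 and −1.27 by DESeq2 (adjusted p = 0.0400 and 0.0493). The 8 genes named for their low unadjusted p, called by neither tool, were *Aldoc*, *Agt* (angiotensinogen), *Tspan18* (a tetraspanin), *Nab2* (a corepressor of EGR factors), *Clic6* (of the intracellular chloride channel family), *Phyhip* (a partner of a peroxisomal enzyme) and *Il20rb* (a cytokine receptor subunit), all lower, and *Spry4*, a feedback inhibitor of receptor tyrosine kinases, higher. Their edgeR log2 fold changes ran from −1.03 for *Il20rb* to 0.62 for *Spry4*.

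Counts of 0 lie behind the last pair of DESeq2 calls. *Shox2*, a homeobox gene, was at 0 in all 6 controls and at 0.0211 to 2.502 CPM in HD mice, with HD replicates 2 (2.502 CPM) and 4 (1.105 CPM) far above the other HD libraries. *Gm49333* was at 0 to 17.2 CPM in controls, with replicate 5 far above the rest and replicate 4 at 0, and at 0 in all 6 HD libraries. Its annotated span on chromosome 16, 20611610 to 20645920, overlaps *Ece2* and *Eef1akmt4* on the same strand, so the assignment of its counts is uncertain. No fold is given for either gene.

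The HD effect was then compared with that in vGluT2+ IPs, where edgeR called 285 of 13487 genes (2.11%), 124 higher and 161 lower. All 30 named genes were tested there, 28 had the same sign as in Gad2+ IPs, and 19 were called, all in the same direction. The vGluT2+ libraries come from other mice, with controls of their own, though IPs of both lines hold RNA of cells not targeted. In the other direction, 281 of the 285 genes were tested in Gad2+ IPs, 222 had the same sign, and 2 were called there (*Ccnd1* and *Grm4*). No share of matching signs over all genes is given here, so these counts of signs have no background and support nothing by themselves. These 281 genes were chosen by their call in vGluT2+ IPs, so larger values there are partly set by the choice. The 124 higher genes had a median log2 fold change of 0.75 in vGluT2+ and 0.11 in Gad2+ IPs. The 157 lower genes tested had medians of −0.81 and −0.19. Split by edgeR's call between Gad2+ IPs and total RNA, the lower genes had a median in Gad2+ IPs of −0.26 where the IP had less of the mRNA (95 genes) and −0.12 where it had more (27 genes). For the higher genes the medians were 0.13 (48 genes) and 0.06 (38 genes).

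The difference between the 2 HD effects, tested as an interaction, was called by edgeR for 15 of 13971 genes (0.107%), 8 with a more positive and 7 with a more negative effect in Gad2+ IPs. All 15 are among the 285, and in each the effect was larger in size in vGluT2+ IPs. Among them are *Clstn2* (calsyntenin, a synaptic adhesion protein), at −0.21 in Gad2+ against −1.47 in vGluT2+ IPs (difference 1.29, SE 0.18, adjusted p = 0.00133), *Asic2* (an acid-sensing channel), at −0.08 against 0.85 (difference −0.90, SE 0.16, adjusted p = 0.0134), and *Vsnl1* (a calcium sensor), at 0.04 against −0.74 (difference 0.81, SE 0.14, adjusted p = 0.0134). *Stum* had the largest difference (1.83, SE 0.27, adjusted p = 0.00138 by edgeR), with medians of 36.5 CPM in control and 37.1 CPM in HD Gad2+ IPs. *Rasa4*, a Ras GTPase-activating protein, had −0.16 in Gad2+ and 1.28 in vGluT2+ IPs (difference −1.40, SE 0.19, adjusted p = 0.00133 by edgeR). Control medians of *Clstn2*, *Asic2*, *Stum* and *Rasa4* were higher in Gad2+ than in vGluT2+ IPs, and that of *Vsnl1* was lower (257 against 1926 CPM).

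Of the genes named by the Gad2+ comparison, *Igfbp5* and *Cbx8* are among the 15. For *Igfbp5* the difference was 1.18 (SE 0.17, edgeR adjusted p = 0.00133), from −0.62 in Gad2+ and −1.78 in vGluT2+ IPs. For *Cbx8* it was −0.81 (SE 0.16, adjusted p = 0.0486), and this call was lost without control replicate 1 (adjusted p = 0.0986), 2 (0.0691), 4 (0.0901) or 6 (0.0676), or without HD replicate 1 (0.0876), 2 (0.0629), 3 (0.0939), 5 (0.0524) or 6 (0.0637) by edgeR. In the same way *Rgs16* (difference 0.91) was lost without control replicate 6 (adjusted p = 0.0526) or HD replicate 1 (0.0503), and *9030025P20Rik* (−0.93) without HD replicate 5 (0.0524). Fits that omit a single Gad2+ library called 13 to 20 genes.

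**Figure D3:**
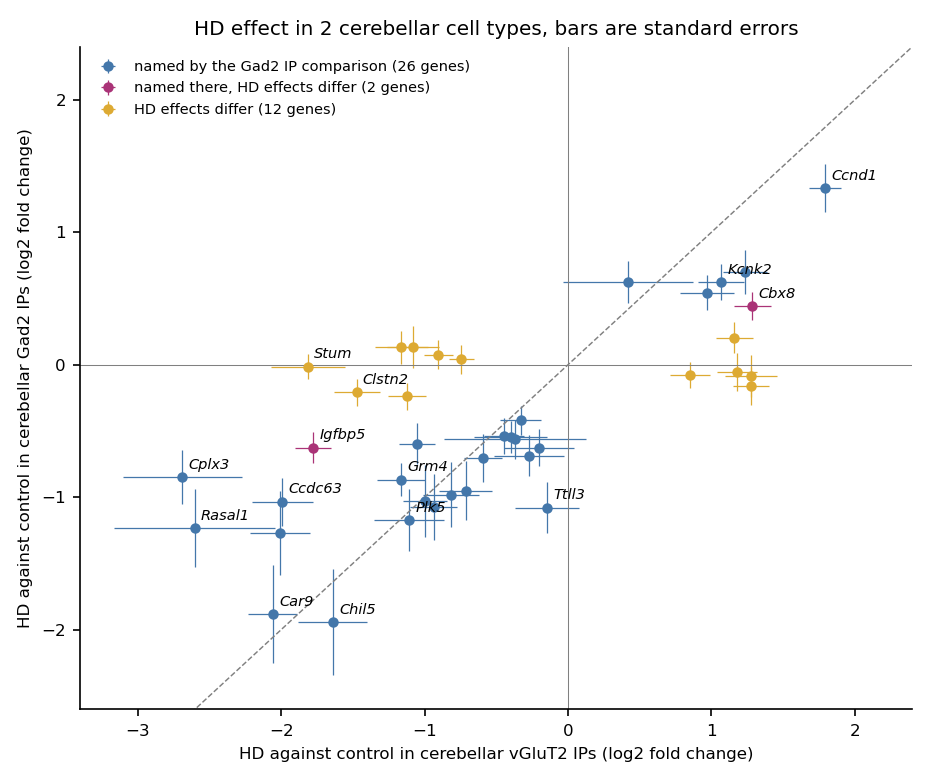
HD against control log2 fold change in cerebellar vGluT2+ IPs (horizontal axis) and Gad2+ IPs (vertical axis) for named genes and for 14 of the 15 genes whose HD effects differ, with standard errors as bars and equal effects on the dashed line. *Gm49333* and *Shox2* are left out for their counts of 0. *Ccnd1* lies at 1.79 and 1.34, and *Stum* at −1.82 and −0.01.

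Promoters are shown for 3 of the named genes: *Igfbp5* and *Cbx8*, whose HD effects differ between the cell types, and *Car9*, a gene that hypoxia induces. Of the 30 named genes, 20 have an entry in the RefSeq promoter table for GRCm38.p6, and *Ccnd1* and *Grm4* are not in it. Each sequence of 300 bases runs 5′ to 3′ on the gene's strand, at chr1:72874816-72875115 (minus strand) for *Igfbp5*, chr11:119040864-119041163 (minus strand) for *Cbx8* and chr4:43506776-43507075 (plus strand) for *Car9*. Capitals mark matches, on either strand, to the cyclic AMP response element TGACGTCA, the hypoxia response core TACGTG (printed in reverse complement where it lies on the opposite strand), the GC box GGGCGG and the E2F core TTCCCGC.
Igfbp5: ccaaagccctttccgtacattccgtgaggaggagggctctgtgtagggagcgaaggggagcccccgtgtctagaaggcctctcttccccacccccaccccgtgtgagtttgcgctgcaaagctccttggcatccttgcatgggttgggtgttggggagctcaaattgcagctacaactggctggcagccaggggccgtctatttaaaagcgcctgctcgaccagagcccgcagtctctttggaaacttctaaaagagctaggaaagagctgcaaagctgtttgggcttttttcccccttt
Cbx8: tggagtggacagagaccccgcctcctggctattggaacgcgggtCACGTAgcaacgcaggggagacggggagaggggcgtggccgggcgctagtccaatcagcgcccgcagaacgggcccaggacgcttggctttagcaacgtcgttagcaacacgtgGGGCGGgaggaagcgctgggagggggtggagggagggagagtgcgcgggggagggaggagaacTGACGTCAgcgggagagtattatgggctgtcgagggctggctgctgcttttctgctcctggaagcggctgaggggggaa
Car9: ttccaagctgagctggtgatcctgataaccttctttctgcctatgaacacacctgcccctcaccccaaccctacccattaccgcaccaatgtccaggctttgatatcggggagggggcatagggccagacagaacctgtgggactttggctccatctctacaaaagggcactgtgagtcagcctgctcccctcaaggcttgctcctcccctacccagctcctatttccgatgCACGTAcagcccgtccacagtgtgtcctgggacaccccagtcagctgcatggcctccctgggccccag
The *Cbx8* promoter holds 1 cyclic AMP response element, 1 hypoxia response core and 1 GC box, which do not overlap, the *Car9* promoter holds 1 hypoxia response core, and the *Igfbp5* promoter holds none of the 4. Of 32851 promoters in the table, 1.79% hold the cyclic AMP response element, 3.23% the hypoxia response core, 35.7% the GC box and 4.6% the E2F core. A match is a run of letters and not a bound site.

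Of 18 Purkinje cell genes tested between HD and control IPs, edgeR and DESeq2 called 0. Of the 18, 17 had a log2 fold change below 0, with a median of −0.26 beside 0.0037 over all genes tested, and 4 had an unadjusted p under 0.05, *Aldoc*, *Lhx1* and *Rgs8* among them. Scaled by library totals without TMM the median was −0.17, where that of all genes moved to 0.09. The 18 genes summed to 26040 to 35270 CPM (median 32530) in controls and 21830 to 29030 CPM (median 25620) in HD mice. Control replicates 2 and 5 lie within the HD range, and HD replicate 4 is the lowest of the 12. *Itpr1*, the IP3 receptor of the Purkinje endoplasmic reticulum and the most abundant of the list, had −0.29 (SE 0.23), *Calb1* (calbindin) −0.27 (SE 0.22), and the transcription factor genes *Lhx1* and *Lhx5* −0.37 (SE 0.12) and −0.35 (SE 0.17). *Pcp2* had −0.09 (SE 0.27) and *Foxp2* 0.08 (SE 0.20). In these bulk IPs fewer Purkinje cells and less of these mRNAs per cell cannot be told apart.

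The calcium pathway of Purkinje cells, in which mGlu1 acts through Gq and phospholipase C on the IP3 receptor, was read in the same way. Of 25 genes tested, 24 had a log2 fold change below 0 (median −0.15, and −0.06 with library totals), 2 had an unadjusted p under 0.05, and 0 were called by edgeR or DESeq2. *Plcb3*, the phospholipase C of zebrin-positive Purkinje cells, was at 102 to 290 CPM (median 164) in controls and 102 to 148 CPM (median 115) in HD mice (log2 fold change −0.57, SE 0.21). The ranges overlap, with control replicate 2 near the lowest HD library and control replicate 4 the highest. *Plcb4*, the form of zebrin-negative cells, had −0.10 (SE 0.20). Several genes of this list are also in the Purkinje cell list, so the counts of both are not independent.

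Golgi cell genes (5 tested, median −0.01) and basket and stellate cell genes (8 tested, median −0.08) had no gene called by edgeR or DESeq2 and 1 each at an unadjusted p under 0.05, *Grm2* (−0.32, SE 0.14) and *Prkcd* (−0.35, SE 0.15). Both medians turn to above 0 with library totals (0.09 and 0.01). *Sorcs3* had −0.04 (SE 0.16) and *Grik3* −0.07 (SE 0.16). For GABA synthesis, packaging and uptake (*Gad1*, *Gad2*, *Slc32a1* and 3 others) the median was −0.05, and 0.03 with library totals, with 0 called by either tool and 0 at an unadjusted p under 0.05. The 11 GABA-A receptor subunits tested had a median of 0.06 and a range of −0.40 for *Gabra2* to 0.88 for *Gabra5*, 0 called by either tool and 0 at an unadjusted p under 0.05. Of 23 ion channel genes that shape firing, 0 were called by either tool and 1 had an unadjusted p under 0.05 (median −0.05, and 0.05 with library totals). Of 23 genes behind spinocerebellar ataxias, 0 were called by either tool and 2 had an unadjusted p under 0.05 (median −0.05, and 0.04 with library totals).

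In each of the following lists of cell maintenance, edgeR and DESeq2 called 0 genes except where named. Cytosolic ribosomal proteins had 70 of 76 log2 fold changes above 0 (median 0.12, 0.20 with library totals), nuclear genes of oxidative phosphorylation 67 of 81 (0.09 and 0.17) and N-linked glycosylation 33 of 41 (0.07 and 0.15), each with 0 genes at an unadjusted p under 0.05. The medians of the sums were lower in HD mice for the first pair of lists. The ribosomal protein genes summed to 9263 to 13780 CPM (median 10560) in controls and 8939 to 17920 CPM (median 10300) in HD mice, and those of oxidative phosphorylation to 20380 to 28340 CPM (median 23960) and 20480 to 33300 CPM (median 23000). In both the groups overlap and HD replicate 4 stands above all other libraries. The N-linked glycosylation genes summed to 2818 to 3099 CPM (median 2971) in controls and 2885 to 3297 CPM (median 3035) in HD mice. There too the groups overlap and HD replicate 4 was the highest. For the proteasome (36 genes, median 0.02) and translocation into the endoplasmic reticulum (24 genes, 0.03), 0 genes had an unadjusted p under 0.05. Stress response genes (24 genes, 0.01) and heat shock genes (17 genes, −0.05, and 0.03 with library totals) had 1 gene each at an unadjusted p under 0.05. Of 19 immediate early genes (median 0.03) and 9 mismatch repair genes (−0.07, and 0.03 with library totals), 0 had an unadjusted p under 0.05. Of 28 exocytosis genes, 14 lay on each side of 0 (median −0.01, and 0.08 with library totals), and 3 had an unadjusted p under 0.05, *Cplx3*, called by DESeq2 as given above, *Doc2a* and *Syt7*.

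Against the cerebrum, where Gad2+ IPs of the same mice include neurons of the striatum, the HD effects were tested with the mouse as a block. EdgeR called 0 of 14472 genes (0%), with 1003 at an unadjusted p under 0.05, and DESeq2 called 21, *Ccnd1* and *Kcnk2* among them. Without the mouse of control replicate 2, edgeR called 1 gene, *Arpp19*. The 1003 became 1936, 1548, 589, 561 and 529 without the mouse of HD replicate 4, 1, 5, 6 or 3, and 653 without that of control replicate 4. In cerebral Gad2+ IPs alone edgeR called 4 of 14342 genes (0.0279%), all lower. *Ccnd1* was at a median of 11.5 CPM in control and 14.7 CPM in HD cerebral IPs, a log2 fold change of 0.28 (SE 0.22). Its difference from the cerebellar effect, 1.05 (SE 0.23), had an adjusted p of 0.493 by edgeR and 0.0360 by DESeq2. For *Kcnk2*, at −0.26 (SE 0.10) in the cerebrum, the difference was 0.87 (SE 0.13, adjusted p = 0.0637 by edgeR and 1.07e-06 by DESeq2). A list of 11 striatal HD genes, such as *Drd1*, *Drd2*, *Penk* and *Arpp21*, had a median of −0.59 in cerebral IPs, with 11 of 11 below 0. The study's text names most of them as lower in HD, though not *Arpp19*, *Chn1* or *Gsg1l*. The list was chosen with earlier results of these data known, so its direction in these cerebral libraries is not independent evidence. In cerebellar Gad2+ IPs the 10 tested had a median of −0.01 (0.07 with library totals), with 0 called by edgeR or DESeq2 and 0 at an unadjusted p under 0.05.

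In cerebellar total RNA, with the line as a covariate, edgeR called 3544 of 14477 genes (24.5%). In the vGluT2 line alone (4 against 4) it called 7565 of 14630 (51.7%). In the Gad2 line alone (3 against 3), from mice that also gave Gad2+ IPs, it called 0 of 14226 (0%), with 316 at an unadjusted p under 0.05, and DESeq2 was not run on that line alone. The counts come from fits of unequal size, and a difference between the lines was not tested. In the vGluT2 line, ribosomal protein genes summed to 22720 to 35100 CPM in HD and 14360 to 19500 CPM in control libraries. Sums were also apart for oxidative phosphorylation (22000 to 27400 against 13580 to 18010 CPM) and microglial genes (230 to 249 against 136 to 160 CPM). The source of these differences was not tested. In the Gad2 line the ranges of these sums overlapped. *Ccnd1* was at 27.2 to 30.5 CPM in its 3 control and 71.3 to 93.9 CPM in its 3 HD total RNA libraries, a log2 fold change of 1.61 (SE 0.17), and *Grm4* was at 480 to 557 and 195 to 309 CPM (−0.96, SE 0.19). For both genes the groups were apart in total RNA of this line, though neither passed in it by edgeR (adjusted p = 0.374 and 1). Both passed by edgeR in the vGluT2 line (1.76, SE 0.13, adjusted p = 3.29e-05, and −0.81, SE 0.17, adjusted p = 0.00289) and over both lines (adjusted p = 4.04e-07 and 0.00456).

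By how strongly the IP concentrates an mRNA, 1404 genes were at least 2-fold higher in Gad2+ IPs than in total RNA. EdgeR called 0 of them in HD, and 6 were higher and 40 lower at an unadjusted p under 0.05 (median log2 fold change −0.03). DESeq2 called *Nek2* and *Cplx3* of these. Of 2128 genes tested that were at least 2-fold lower in the IPs, edgeR called 2, *Ccnd1* and *Grm4*, DESeq2 called 12, and 40 were higher and 69 lower at an unadjusted p under 0.05 (median 0.0016). Over all 14098 genes tested, edgeR called 0.0142% and DESeq2 called 0.156%, and 2.3% had an unadjusted p under 0.05 by edgeR.

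The 4 choroid plexus genes summed to 17.3 to 536 CPM (median 204) in control and 9.62 to 293 CPM (median 155) in HD Gad2+ IPs, *Ttr* the most abundant, with a median log2 fold change of −0.99 (−0.90 with library totals) and values from −1.46 for *Folr1* to −0.56 for *Clic6*, one of the named genes. The spread within each genotype was wide, and the part of choroid plexus RNA in *Clic6* was not tested. Microglial genes had 9 of 9 log2 fold changes below 0 (median −0.37, and −0.29 with library totals), with sums of 78.7 to 165 CPM (median 111) in controls and 71.0 to 122 CPM (median 107) in HD mice. Elsewhere they went the other way, with 8 of 9 above 0 in total RNA of the Gad2 line (median 0.17) and 6 of 8 in vGluT2+ IPs (0.27). In Gad2+ IPs oligodendrocyte genes had 9 of 10 below 0 (median −0.16, and −0.06 with library totals) with sums of 715 to 1536 CPM (median 1101) and 745 to 1236 CPM (median 882), *Mbp* the most abundant. Genes of astrocytes and Bergmann glia, where *Agt* is made, had a median of −0.09 (0.02 with library totals) and sums of 674 to 1492 CPM (median 1120) and 857 to 1394 CPM (median 981), *Slc1a3* the most abundant. None of these 4 lists had a gene called by edgeR or DESeq2 or, except in part for single genes (1, 0, 2 and 1 genes in the order given), an unadjusted p under 0.05, none had a gene at 0 in all 12 IPs, and their part in the values of the named genes was not tested.

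The remaining lists had 0 genes called by edgeR or DESeq2, except *Igfbp5* by DESeq2 among 13 genes of IGF signalling (median 0.0027, 1 at an unadjusted p under 0.05). Of 24 genes of cholesterol synthesis 0 had an unadjusted p under 0.05 (median −0.01, 0.08 with library totals), as for 13 mitochondrially encoded genes (−0.05, 0.05 with library totals), 2 genes of oligodendrocyte precursors (0.06), 6 of endothelial and mural cells (0.16) and 4 of erythroid cells (−0.09, and 0 with library totals). The 5 genes of nuclear and unipolar brush neurons had a median of 0.45 and 1 gene at an unadjusted p under 0.05, *Eomes* (−0.85), with sums of 4.43 to 21.8 CPM in controls and 6.58 to 31.4 CPM in HD mice. Of 9 genes of brainstem and midbrain neurons 2 were tested, *Tph2* (0.88) and *Th* (−0.48, at an unadjusted p under 0.05), and of 6 forebrain GABAergic genes 0 were tested.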

How the data were processed

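RNA-seq libraries of ribosome-bound (RiboTag IP) and total RNA were described by their deposited labels. The authors aligned reads to GRCm38.p6 with STAR and quantified them with Salmon in nf-core/rnaseq 3.0, per the submitters' processing notes. The deposited values are estimated counts (expected counts), of which 8.57% are not whole, and they were rounded. Which annotation release the authors used is not given in the sources used here. Among 55401 mouse genes, 55141 identifiers matched GENCODE M21, which gave symbols, gene types and positions, and 92 spike-ins were left out.

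Protein-coding genes with a mean count above 10 over the libraries of a comparison were tested with edgeR 4.0.16 (TMM scaling, quasi-likelihood F test, Benjamini-Hochberg adjustment over all genes tested, called at 0.05 or less), in R 4.3.3, and the fits were tested on simulated data. SE is the absolute log2 fold change over the square root of F. CPM were scaled by TMM over all libraries described. DESeq2 1.42.0 and limma 3.58.1 served as alternatives, with other scalings, filters, gene types, covariates, replicate blocks and each Gad2 library left out. Python 3.11.15 with pandas 2.3.3 and numpy 2.4.6 wrote the tables, and matplotlib 3.10.9 drew the figures.

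Compared were HD and control in cerebellar Gad2 IPs, the same effect in cerebellar vGluT2 IPs and cerebral Gad2 IPs (interaction terms, the latter with the mouse as a block), in total RNA, and IPs against total RNA. Named are all genes called by edgeR, then those called by DESeq2, then those of lowest unadjusted p by edgeR, up to 30, besides *Htt* and the genes whose HD effects differ. Other genes were named after their values were seen. The members and gene lists were chosen with earlier results of these data known. Library totals of the Gad2 IPs ran from 26873270 to 93692505.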

Additional observations from a re-analysis of the deposited data

Results flagged for a closer look

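In 12 of 90 groups of values, 1 library lay far from the others of its genotype by Dixon's criterion, which chance meets in about 1 in 20 groups. Among controls the highest values stood apart for *Gm49333* in replicate 5 (17.2 CPM), *Adra2c* (9.06 CPM) and *Phyhip* (776.5 CPM) in replicate 4, *Nek2* in replicate 1 (101.6 CPM) and the erythroid marker sum in replicate 3 (54.5 CPM). Among HD libraries they stood apart for *Plk5* (15.2 CPM) and *Inf2* (11.1 CPM) in replicate 4, *Cbx8* in replicate 5 (24.9 CPM), *Tspan18* (3.91 CPM) and the nuclear and unipolar brush marker sum (31.4 CPM) in replicate 2, and the library total of replicate 6, the one sequenced again (93692499 after rounding of each value, 93692505 as deposited). The lowest value stood apart for *Igfbp5* in HD replicate 1 (53.1 CPM).

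The HD effect differed between cerebellar Gad2+ and vGluT2+ IPs for 15 genes by edgeR's interaction test, of which 14 are given. The difference of log2 fold changes, Gad2+ minus vGluT2+, was above 0 for *Stum* (1.83), *Extl1* (1.32), *Clstn2* (1.29), *Zcwpw1* (1.24), *Igfbp5* (1.18), *Armh4* (1.01), *Rgs16* (0.91) and *Vsnl1* (0.81). It was below 0 for *Rasa4* (−1.40), *Dbndd1* (−1.33), *Zfpm1* (−1.19), *9030025P20Rik* (−0.93), *Asic2* (−0.90) and *Cbx8* (−0.81). The cause of these differences was not tested.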

How the results depend on the processing

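EdgeR called 2 genes between HD and control Gad2+ IPs. The count was 22 with DESeq2, 0 with limma-voom (295 at an unadjusted p under 0.05), 1 with DESeq2 size factors, 0 with library totals (306), 1 without a filter (515), 0 with all gene types (382), 0 with *Xist* as a covariate (281), and 6 with all cerebellar IPs fitted together. It was 0 with *Ddx3y* as a covariate (407), chosen after seeing the data, 0 without the re-sequenced library (287), and 0 to 3 with each library left out. With the summed granule cell genes as a covariate it was 2 (1016), and with *Grm4* left out of that sum it was 2 (864). With a replicate block it was 0 over 6 pairs (447; adjusted p = 0.0507 for *Ccnd1* and 0.138 for *Grm4* by edgeR) and 0 over 5 pairs (275; 0.208 and 0.732). Controls were littermates per the series description, and mice of equal number have adjacent identifiers in the labels, which do not say that a number marks a litter. Deviations from the group means correlated at −0.193 to 0.52 over the 6 pairs, 4 of them over 0.1, and 4 controls and 3 HD libraries correlated best with their own number, a hint from the data. The cause was not tested.

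The difference from vGluT2+ IPs was called for 15 genes by edgeR, 73 by DESeq2 and 13 to 20 with each Gad2+ library left out. The difference from cerebral IPs was called for 0 genes by edgeR (1003 at an unadjusted p under 0.05), 21 by DESeq2 and 0 to 1 with each mouse left out. In total RNA edgeR called 3544 genes over both lines, 0 in the Gad2 line alone (316) and 7565 in the vGluT2 line alone. The difference in the HD effect on *Htt* between cerebellum and cerebrum, −0.08, was 0.02 without the mouse of HD replicate 4 and 0.03 without that of control replicate 5. The cause was not tested.

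Over 30 alternatives *Ccnd1* passed in 11 and *Grm4* in 7 (leaving out HD replicate 6 and leaving out the re-sequenced library are the same fit, counted under both names, and neither gene passed in it, while edgeR's legacy setting, in which both passed, equals the reported fit), at log2 fold changes of 1.23 to 1.44 and −0.93 to −0.77. Of 926 values of named genes in Gad2+ IPs, 42 no longer passed, all of these 2 genes and with that fit counted again, 25 newly passed and 0 reversed direction. Most named genes were not called at the start, so their staying uncalled is no sign of stability. With 6 libraries per genotype, the median SE over genes tested was 0.174 on the log2 scale, and changes that are small beside it could go uncalled. Sex is not in the labels, and the IPs hold RNA of cells not targeted.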
